A study of Homo sapiens with 2 samples.

Results

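The 10 genes described here, PER1, PER2, PER3, CRY1, CRY2, CLOCK, NR1D1, NR1D2, DBP and BHLHE40, belong to the circadian clock. They were taken by symbol from the deposited table of 46732 annotated genes, and all 10 were found. RNA came from secondary mammospheres, floating spheres grown without attachment, of T47D, an established luminal breast cancer line that carries estrogen receptor. There was 1 library labelled CIC knockdown and 1 labelled control, and the sources used here do not say how CIC was knocked down. Spheres of either kind grew for 7 days, were passaged and grew for 7 days more. No label gives the hour of harvest, so the comparison asks whether genes whose level follows the time of day differed between the cultures. With 1 library per group there is no test and no p-value, and a difference between the labels cannot be told apart from one between cultures, harvests or library preparations.

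The clock is a feedback loop of transcription. CLOCK and its partner BMAL1 (gene ARNTL) bind E-box sequences and turn on the PER, CRY, NR1D1, NR1D2 and DBP genes. PER and CRY proteins then return to the nucleus and block CLOCK and BMAL1, and BHLHE40 competes with them for E-boxes. The nuclear receptors REV-ERB alpha and beta (NR1D1 and NR1D2) repress ARNTL, so that in rhythmic cells ARNTL mRNA peaks when the E-box genes are low. Cultured cells keep this rhythm individually and drift out of phase with each other unless a stimulus such as glucocorticoid, cAMP or fresh serum sets them to a common time.

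The library labelled CIC knockdown held 68420805 estimated counts and the control library 47099221. CIC mRNA, the target of the knockdown, had 872 counts in the knockdown-labelled library and 607 in the control library, a ratio of 0.98 (95% counting interval 0.882 to 1.09). The transcript level thus gives no check of the label, and every direction below is between the labels. All 8 luminal epithelial markers were measured, and ESR1, the estrogen receptor, stood at 65.3 TPM, a level scaled to transcript length and library size, in the knockdown-labelled library and 65.7 TPM in the control library. The leukocyte markers PTPRC and CD3E had 0 counts in both, as did the fibroblast markers COL1A2, PDGFRA and PDGFRB. No leukocyte or endothelial marker reached 50 counts. The 5 endothelial markers summed to 75 counts in the knockdown-labelled library and 30 in the control library. Of 7 fibroblast markers 3 were measured. COL3A1 had 8415 counts in the knockdown-labelled library and 2384 in the control library, COL1A1 168 in the knockdown-labelled library and 58 in the control library, and LUM 432 and 550. Whether other cells contributed to the values of the clock genes was not tested.

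Sequences near the start sites are shown because E-box letters are what CLOCK and BMAL1 are known to bind. RefSeq promoters (GRCh38.p14) were matched by symbol for all 10 members, 14 start sites in all, and the 250 bases before each start were searched on both strands. The E-box CACGTG was found at 3 of these 14 starts and in 6.34% of all 35116 promoters in the table, and its variant CACGTT at 5 of 14 starts and in 4.55% of all. The stretches below run 5′ to 3′ on the strand of the gene, with the E-box or its variant in capitals. AACGTG is the variant read from the other strand.
PER1 (chr17:8152560-8152589, minus strand): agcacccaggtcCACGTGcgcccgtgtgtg
BHLHE40 (chr3:4979187-4979209, plus strand): tccaaCACGTGagactcatgtga
NR1D2 (chr3:23945954-23945983, plus strand): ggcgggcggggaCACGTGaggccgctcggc
NR1D2 (chr3:23946004-23946033, plus strand): gggccgcagggaCACGTGggggcgggggcg
CLOCK (chr4:55546102-55546131, minus strand): tcaccactcgggCACGTTtggagcagcgcc
CRY1 (chr12:107093621-107093650, minus strand): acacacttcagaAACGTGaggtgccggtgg
CRY2 (chr11:45847275-45847304, plus strand): acacatggtaggAACGTGagggggcgggcc
PER2 (chr2:238288790-238288819, minus strand): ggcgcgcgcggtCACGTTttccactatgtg
NR1D1 (chr17:40100740-40100769, minus strand): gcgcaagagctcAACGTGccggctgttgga

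The 3 members with CACGTG, namely PER1, BHLHE40 and NR1D2, were all lower in the knockdown-labelled library by their counting intervals, as given below. Those with CACGTT (CLOCK, CRY1, CRY2, PER2 and NR1D1) were higher or overlapped an equal level. NR1D1 had 30 counts in the knockdown-labelled library and 24 in the control library, and its interval of 0.482 to 1.52 allows either direction. PER3 and DBP had neither form in their windows. PER3 was also lower by interval (0.857, 0.764 to 0.963), and DBP overlapped an equal level (0.899). The split by letters thus leaves out these genes. It was seen after the values were known, and a match of letters is a description, not a binding site. The pair of E-boxes of NR1D2 lies before a minor start site (23946121) whose transcript held 1.89% of the gene's counts in the knockdown-labelled library and 1.24% in the control library. No CACGTG or CACGTT lay in the window before its main start (23945286). The CLOCK site lies before the start 55545932, whose transcript held 3.03% of the gene's counts in the knockdown-labelled library and 1.01% in the control library. The PER1 site lies before the start 8152404, whose transcript held 0 counts in the knockdown-labelled library and 460 in the control library. For PER1, NR1D2 and CLOCK the letters thus lie before starts with few or no counts in at least 1 library. The CRY1 site lies before the start 107093549. Its transcript held 32.8% of the gene's counts in the knockdown-labelled library and 42.8% in the control library. The PER1 start 8156360 and the CRY1 start 107093274, where other transcripts of these genes begin, were not among the starts searched. The whole window before the minor start, chr3:23945871-23946120 on the plus strand, holds both E-boxes in capitals.
NR1D2: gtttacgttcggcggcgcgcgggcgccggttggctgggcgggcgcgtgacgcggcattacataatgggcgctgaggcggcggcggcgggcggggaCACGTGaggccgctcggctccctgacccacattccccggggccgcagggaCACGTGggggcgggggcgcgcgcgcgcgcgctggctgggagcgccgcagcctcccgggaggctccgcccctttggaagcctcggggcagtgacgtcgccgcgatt
For PER1, 200 bases of the window before the downstream start site, chr17:8152455-8152654 on the minus strand, are shown with the E-box in capitals.
PER1: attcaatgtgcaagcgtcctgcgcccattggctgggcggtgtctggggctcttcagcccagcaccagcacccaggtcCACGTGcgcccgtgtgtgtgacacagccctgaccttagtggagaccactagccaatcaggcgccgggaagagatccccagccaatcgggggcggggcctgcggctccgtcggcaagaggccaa
The D-box TTANGTAA, which DBP and its relatives bind, was found before PER3 and the minor NR1D2 start and in 1.98% of all promoters. The core site AGGTCA of REV-ERB and ROR receptors was found before CRY2 and PER1 and in 12.1% of all. Neither the cAMP response element TGACGTCA (1.65% of all promoters) nor the CIC octamers TGAATGAA (1.4%) and TGAATGGA (0.832%) occurred in a member's window.

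Of the 10 members, 9 had at least 50 counts in 1 library. By the counting interval, 2 of these 9 were higher in the knockdown-labelled library (CLOCK and CRY1), against 32.0% of 15303 genes measured by the same filter. BHLHE40, NR1D2, PER1 and PER3 were lower, 4 of 9, against 26.6% of all measured genes, and PER2, CRY2 and DBP overlapped an equal level. None of the 9 reached a 2-fold difference, which 2.2% of the 13722 genes with at least 100 counts did. The median log2 ratio of the 9 was -0.15, and that of all measured genes 0.02. The differences were small, between 0.634 and 1.31 times the control level, and counts of 2 and 4 among 9 genes lie near the shares of genes at large. The interval covers counting error only, and with libraries of this depth a difference of a few percent in an abundant gene lies outside it.

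**Figure D1:**
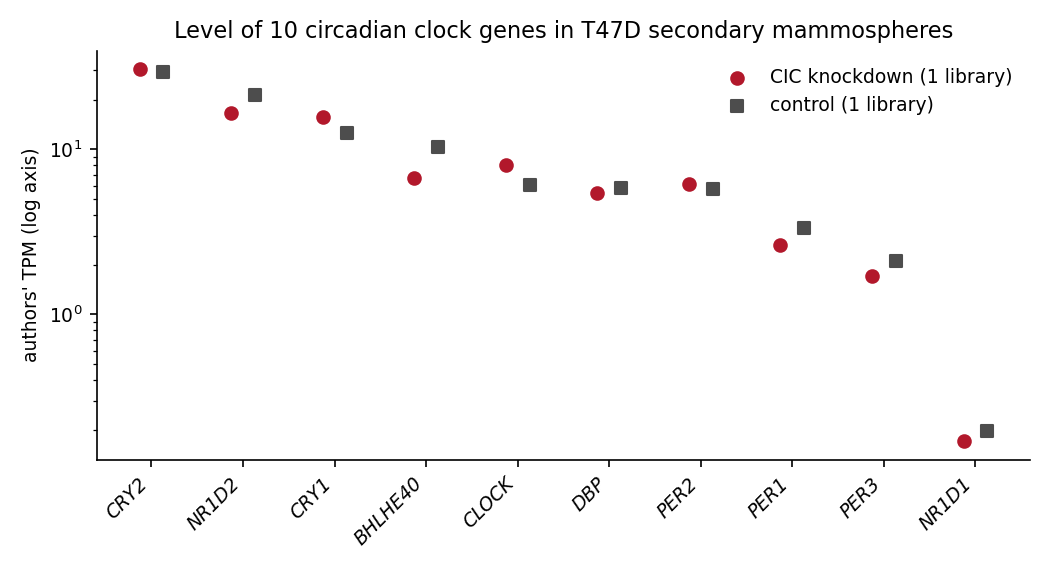
Level of each of the 10 genes in TPM on a log axis, with circles for the library labelled CIC knockdown and squares for the control library, 1 library each and no error bars. CRY2 is at the top in both (30.5 and 29.3 TPM) and NR1D1 at the bottom (0.171 and 0.196 TPM).

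Levels per length set the members apart more than the label did, as the plot of TPM by gene shows. CRY2 was the most abundant member, followed by NR1D2 with 16.6 TPM in the knockdown-labelled library and 21.4 TPM in the control library. CRY1 ranked 3 in both, with 15.6 TPM in the knockdown-labelled library and 12.6 TPM in the control library. CLOCK (7.97 and 6.04), BHLHE40 (6.68 and 10.3), PER2 (6.13 and 5.78) and DBP (5.43 and 5.79) lay close together, and their order differed between the libraries: BHLHE40 ranked 5 in the knockdown-labelled library and 4 in the control library. PER1 and PER3 stayed low, PER1 at 2.63 and 3.31 TPM and PER3 at 1.71 and 2.12 TPM. NR1D1, the REV-ERB alpha gene and often among the strongest oscillators of the clock, was barely detected.

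CLOCK (gene 9575, GRCh38 chromosome 4, 55427901 to 55547138) encodes the histone-acetylating partner of BMAL1. It had 4587 counts in the knockdown-labelled library and 2382 in the control library, or 66.7 and 50.8 CPM (counts scaled to library size). The ratio was 1.31 (1.25 to 1.38) and the log2 ratio 0.39, the highest of the members, and 11.1% of all measured genes had a higher ratio. CLOCK overlaps TMEM165, which lies on the opposite strand and shares 25497 bases of its span, introns included. TMEM165 itself had a log2 ratio of 0.09 (6021 and 3856 counts). Whether the counting used strand is not stated.

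The cryptochromes are the stronger repressors of CLOCK and BMAL1 and differed from each other. CRY1 (gene 1407, chromosome 12, 106991364 to 107093872) had 2981 counts in the knockdown-labelled library and 1684 in the control library. Its ratio was 1.21 (1.14 to 1.28), a log2 ratio of 0.27. CRY2 (gene 1408, chromosome 11, 45847118 to 45883248) had 8346 counts in the knockdown-labelled library and 5610 in the control library, a ratio of 1.01 (0.981 to 1.05). CRY2 had the most counts of the members, so its near-equal level carries the narrowest counting interval on the log2 scale.

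Among the period genes, which encode the partners of the cryptochromes, PER1 and PER3 were lower and PER2 overlapped an equal level. PER1 (gene 5187, chromosome 17, 8140470 to 8156360), also induced directly by glucocorticoid and cAMP, had 785 counts in the knockdown-labelled library and 657 in the control library. Scaled to depth, the ratio was 0.815 (0.734 to 0.905). PER3 (gene 8863, chromosome 1, 7784187 to 7845181) had 665 counts in the knockdown-labelled library and 529 in the control library, a ratio of 0.857 (0.764 to 0.963). If the counts were of mates rather than fragments they would be halved, and the interval of PER3 then reached 1.01 and its call was lost. PER2 (gene 8864, chromosome 2, 238244038 to 238290102) had 2594 counts in the knockdown-labelled library and 1701 in the control library, a ratio of 1.04 (0.978 to 1.11).

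BHLHE40 (DEC1), a basic helix-loop-helix repressor that also responds to hypoxia and other stresses, had the lowest ratio of the members. The gene (8553, chromosome 3, 4979420 to 4985323) had 1398 counts in the knockdown-labelled library and 1505 in the control library, although the knockdown-labelled library was 1.45 times as deep. In CPM these are 20.3 and 32.1, a ratio of 0.634 (0.589 to 0.682) and a log2 ratio of -0.66. Only 3.87% of all measured genes had a lower ratio. Its antisense neighbour BHLHE40-AS1 had 9 counts in the knockdown-labelled library and 7 in the control library.

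Of the REV-ERB genes, NR1D2 was lower by interval, while NR1D1 was barely counted and overlapped an equal level. NR1D2 (gene 9975, chromosome 3, 23945260 to 23980618), the REV-ERB beta gene, had 5755 counts in the knockdown-labelled library and 5163 in the control library. In CPM these are 83.7 and 110.1, a ratio of 0.76 (0.732 to 0.789), and 8.87% of all measured genes had a lower ratio. NR1D1 (gene 9572, chromosome 17, 40092793 to 40100589) had 30 counts in the knockdown-labelled library and 24 in the control library. Its ratio of 0.853 has an interval of 0.482 to 1.52, so that a change of the size seen in NR1D2 was not detectable at this depth. Its 3′ end overlaps that of THRA on the opposite strand over 1075 bases. THRA, a thyroid hormone receptor gene, had 572 counts in the knockdown-labelled library and 493 in the control library and a log2 ratio of -0.34.

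DBP (gene 1628, chromosome 19, 48630030 to 48637379), an output factor that binds D-boxes and is driven directly by E-boxes in its gene, had 622 counts in the knockdown-labelled library and 472 in the control library. The ratio was 0.899 (0.796 to 1.02), which overlaps an equal level. SPHK2 on the opposite strand overlaps its 3′ end by 378 bases and had 483 counts in the knockdown-labelled library and 292 in the control library.

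**Figure D2:**
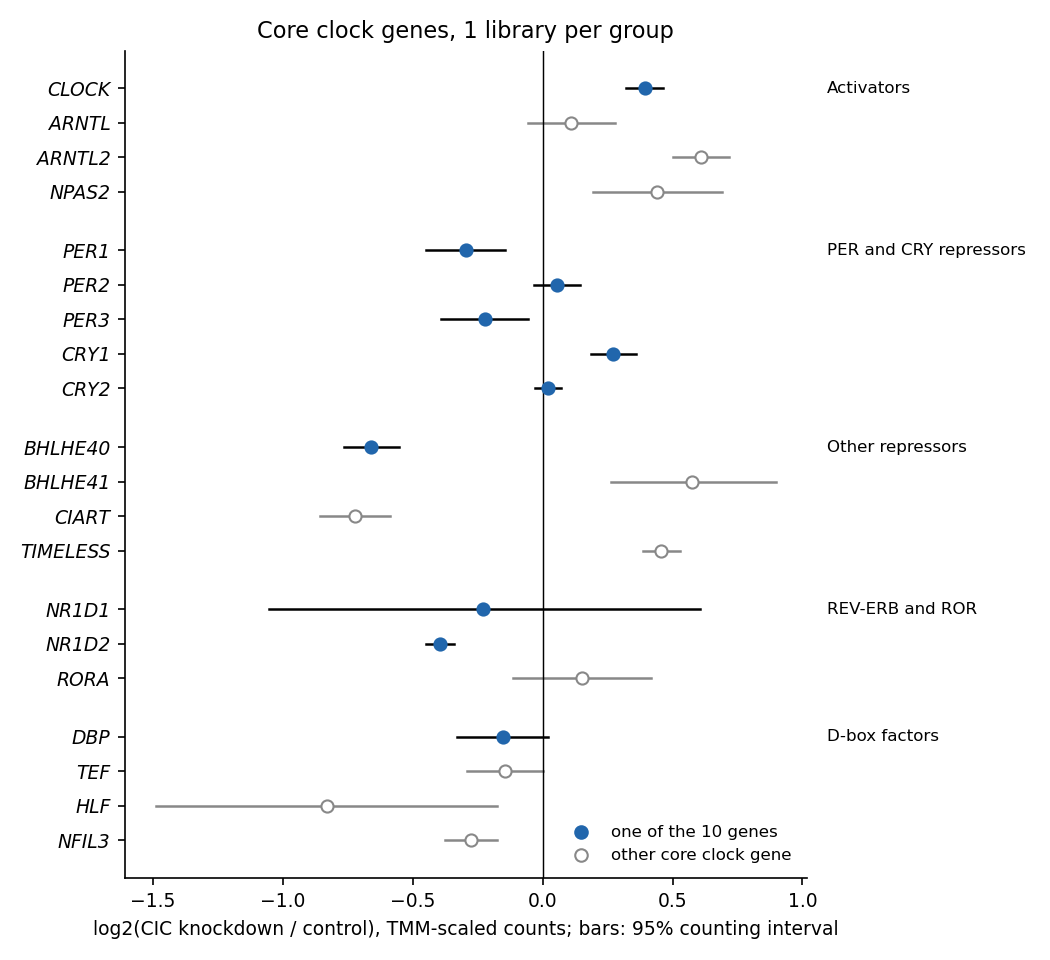
Log2 ratio of the library labelled CIC knockdown to the control library from TMM-scaled counts, with bars for the 95% counting interval, for the members (filled) and other core clock genes (open), grouped by role. CLOCK, ARNTL2 and NPAS2 lie right of 0, while BHLHE40, CIART and NR1D2 lie left of it. NR1D1 and HLF had fewer than 50 counts.

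Ratios between members within a library need no scaling for depth, so each pair of the 9 measured members was also compared directly. Of 36 pairs, 29 had intervals that put their ratios apart and 7 overlapped. Pairs of other genes were not counted, so 29 of 36 shows nothing particular to clock genes. Of single measured genes, 32.0% were higher and 26.6% lower by interval. The members were sorted by log2 ratio before pairing, so the direction of each pair was set by the same values. In the order of log2 ratio, from BHLHE40 over NR1D2, PER1, PER3, DBP, CRY2, PER2 and CRY1 to CLOCK, 5 of 8 neighbour pairs overlapped. BHLHE40 stood below NR1D2, PER2 below CRY1, and CRY1 below CLOCK by their intervals. There were 3.28 CLOCK counts for each BHLHE40 count in the knockdown-labelled library and 1.58 in the control library, a change of 2.07 times (1.9 to 2.27). For CLOCK against NR1D2 the ratios were 0.797 in the knockdown-labelled library and 0.461 in the control library, a change of 1.73 times (1.62 to 1.84). For CRY1 against CRY2 they were 0.357 and 0.3, a change of 1.19 times (1.11 to 1.28).

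**Figure D3:**
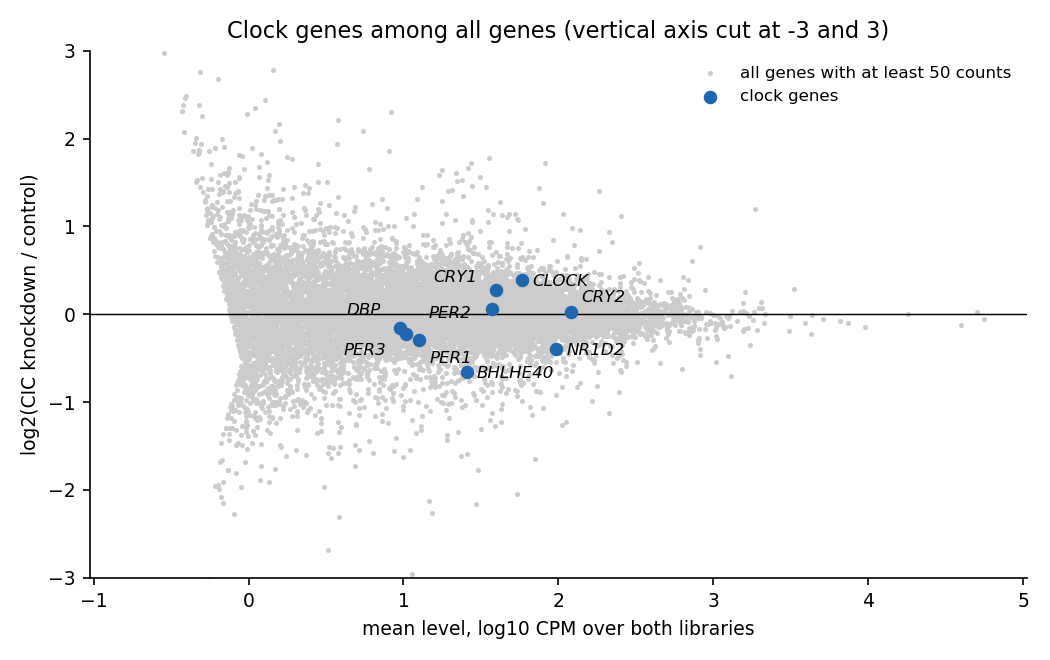
Log2 ratio of the library labelled CIC knockdown to the control library against the mean level over both libraries (log10 CPM) for 15303 genes with at least 50 counts (grey) and the 9 measured clock genes (blue). The clock genes lie inside the cloud of all genes, from -0.66 for BHLHE40 to 0.39 for CLOCK, and 53 genes lie beyond the drawn range of 3 either way.

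Other core clock genes extended the picture in both directions. Of 12 core genes outside the members, 10 were measured, 4 of them higher and 3 lower by interval in the knockdown-labelled library, with a median log2 ratio of 0.13. The other activators lay at or above the control level. ARNTL (BMAL1) had 768 counts in the knockdown-labelled library and 485 in the control library, a ratio of 1.08 (0.963 to 1.21). Its paralogue ARNTL2 (2298 and 1027 counts) stood at 1.53 (1.42 to 1.64). NPAS2, which can stand in for CLOCK, had 406 counts in the knockdown-labelled library and 204 in the control library, a ratio of 1.36 (1.14 to 1.61). With CLOCK, 3 of these 4 activators were higher by interval and 0 lower, against 32.0% higher and 26.6% lower of all measured genes.

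The other repressors split. CIART (CHRONO), an E-box driven repressor of CLOCK and BMAL1, had 841 counts in the knockdown-labelled library and 946 in the control library, a ratio of 0.606 (0.552 to 0.666) that lies beside that of BHLHE40. BHLHE41 (DEC2), the paralogue of BHLHE40, had 269 counts in the knockdown-labelled library and 123 in the control library and the opposite direction, at 1.49 (1.2 to 1.86). TIMELESS, which in mammals acts mainly at replication forks, stood at 1.37 (1.31 to 1.44, with 5032 and 2499 counts). RORA, a receptor that activates ARNTL at the sites where REV-ERB represses it, overlapped an equal level (314 and 193 counts), and RORB had 0 counts in both libraries. The D-box activator TEF stood at 0.904 (0.818 to 1.0, with 907 and 684 counts). The D-box repressor NFIL3 stood at 0.826 (0.77 to 0.887, with 1741 and 1437 counts). HLF had 38 counts in the knockdown-labelled library and 46 in the control library, under the filter.

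Genes that CLOCK and BMAL1 drive and genes that REV-ERB represses run in opposite phase in rhythmic tissues, so the arms were set side by side. Of 14 E-box driven genes 12 were measured. By interval 2 were higher (CRY1 and BHLHE41) and 6 lower, with PER1, PER3, NR1D2, BHLHE40 and CIART among them and a median log2 ratio of -0.19. Their summed TPM was 106.4 in the knockdown-labelled library and 118.8 in the control library. Of 5 genes repressed by REV-ERB, 3 were higher (CLOCK, NPAS2 and CRY1), NFIL3 was lower and ARNTL overlapped an equal level, with a median of 0.27. CRY1 belongs to both lists, and the median of 0.27 is its own value. Of all measured genes, 32.0% were higher and 26.6% lower by interval. They had a median of 0.02, with 5% below -0.57 and 5% above 0.62, so most genes of either arm lie within the range of genes at large. The lists hold members of the group described and were chosen with earlier results of these data known, so the medians are descriptions. A single library per group holds no time course, and phase was not measured.

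**Figure D4:**
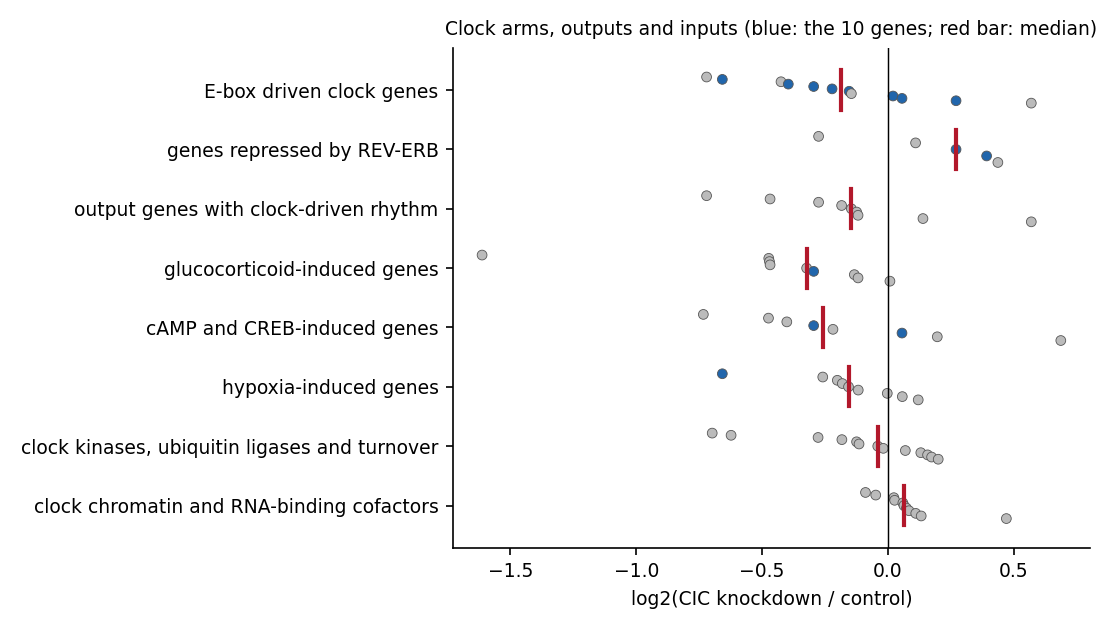
Log2 ratio of the library labelled CIC knockdown to the control library for each measured gene (point) in 8 lists, with the members in blue and the median of each list as a red bar. The E-box driven genes centre at -0.19 and the genes repressed by REV-ERB at 0.27, the value of CRY1, while glucocorticoid-induced genes centre at -0.32.

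Target genes of stimuli that can set the clock are shown in the plot of lists. The lists include PER1, PER2 and BHLHE40 themselves, so their counts and medians are not independent of the members. Of 9 glucocorticoid-induced genes, PER1 among them, 7 had intervals below 1 and 0 above it, against 26.6% below and 32.0% above of all measured genes, and the median log2 ratio was -0.32. ZBTB16, a zinc finger gene used as a marker of glucocorticoid and progesterone action, had 66 counts in the knockdown-labelled library and 141 in the control library, a ratio of 0.319 (0.235 to 0.431). The kinase gene SGK1 (2129 and 2016 counts) stood at a log2 ratio of -0.47, CEBPD (446 and 422 counts) at -0.47 and TSC22D3 (GILZ; 3834 and 3617 counts) at -0.47. FKBP5, often the most used glucocorticoid target, stood at 0.01 (1509 and 1023 counts), and DUSP1 overlapped an equal level too. The choice of FKBP5 and DUSP1 falls outside the rule for named genes and was made with their values in view.

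Of 8 genes induced by cAMP and CREB, PER1 and PER2 among them, 5 had intervals below 1 and 2 above it, and the median was -0.26. Of all measured genes, 26.6% had intervals below 1 and 32.0% above it, with a median of 0.02. The salt-inducible kinase SIK1, which limits clock resetting, stood at -0.73 (583 and 662 counts), and the nuclear receptors NR4A1 at -0.47 (905 and 858 counts) and NR4A2 at -0.40 (378 and 341 counts). The phosphodiesterase PDE4D stood at 0.69 (755 and 319 counts). Of 9 hypoxia-induced genes, BHLHE40 among them, 5 intervals lay below 1 and 1 above it, and the median was -0.16. BHLHE40 had the largest difference of these 9, ahead of PDK1 at -0.26 (1782 and 1454 counts), ANKRD37 at -0.20, which overlapped an equal level (334 and 262 counts), and VEGFA at -0.18 (5851 and 4523 counts). None of these stimuli was measured itself, and their part in the members' values was not tested.

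Clock outputs and the enzymes that time the loop were mixed. The counts below stand beside all measured genes, of which 32.0% had intervals above 1 and 26.6% below it, with a median of 0.02. Of 9 measured output genes, 6 intervals lay below 1 and 2 above it around a median of -0.14, and CIART, BHLHE41, TSC22D3 and NFIL3, given above, were the farthest from 0. Of 13 measured kinases, ubiquitin ligases and other turnover genes, 4 intervals lay above 1 and 6 below it, and the median was -0.04. FBXL21 was not analysed here. PRKAA1, a catalytic subunit of the AMP-activated kinase that marks CRY1 for degradation, stood at -0.70 (6030 and 6672 counts). CSNK2A1, a catalytic subunit of casein kinase 2, stood at -0.62 (6177 and 6488 counts). FBXW11, a ubiquitin ligase subunit that acts on PER proteins, stood at -0.28 (8088 and 6684 counts) and the deubiquitinase USP7 at 0.20 (10112 and 6001 counts). Of 11 chromatin and RNA-binding cofactors, 6 intervals lay above 1 and 2 below it, and the median was 0.06. SFPQ, which joins PER complexes, led with 0.47 (26444 and 13007 counts), followed by KMT2A at 0.13, DHX9 at 0.11 and KDM5A at -0.09.

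How counts were divided among transcripts of a gene differed between the libraries for some members and hardly for others. The share of counts assigned to other transcripts in the knockdown-labelled library than in the control library was 85.9% for PER1, 62.4% for PER3, 35.4% for PER2, 32.8% for CLOCK and 17.2% for CRY1. It was 6.55% for DBP, 3.07% for NR1D2, 0.607% for BHLHE40 and 0.041% for CRY2. Among core clock genes outside the members, this share was 90.7% for TIMELESS, 68.9% for ARNTL2 and 49.9% for ARNTL, and lower for the rest. The ratios of these genes given above also rest on summing transcripts. Read from its most abundant transcript alone, DBP stood at 0.078 without a call, against -0.15 over all its transcripts. In the authors' table with assembled transcripts, a CRY2 splice variant took 86.8% of the gene's counts in the knockdown-labelled library and 27.9% in the control library. NR1D1 has 1 annotated transcript.

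PER1 has a downstream and an upstream start, and its reads were placed almost wholly at the upstream start in the knockdown-labelled library. Transcripts from the upstream start (8156360) held 783 of 785 counts in the knockdown-labelled library and 165 of 657 in the control library. Those from the downstream starts, 8152404 and 8152435, held 2 counts in the knockdown-labelled library and 492 in the control library. PER3 transcripts with the longer 3′ end (7845177 to 7845181) held 303 counts in the knockdown-labelled library and 5 in the control library, and those with the shorter end (7843966) held 362 and 524. The most abundant transcript was taken as the one with the highest TPM summed over both libraries. For PER1 this was XM_005256689, with 722 counts in the knockdown-labelled library and 40 in the control library. Read from it alone, PER1 turned to a log2 ratio of 3.57. The leading transcript of the control library, NM_002616, held 0 counts in the knockdown-labelled library and 460 in the control library. The direction of the gene thus rests on summing its transcripts. Whether these shifts are in the RNA or in the assignment of reads was not tested.

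For CLOCK the direction was the same in either class of 3′ end. The transcripts with the longer end (55427901 to 55427903) held 1632 counts in the knockdown-labelled library and 701 in the control library, a ratio of 1.59 (1.45 to 1.74). Those with the shorter end (55430420) held 2955 and 1681 counts, a ratio of 1.2 (1.13 to 1.27). For PER2, the transcript NM_022817 held 2415 counts in the knockdown-labelled library and 981 in the control library, while the other transcripts held fewer counts in the knockdown-labelled library. For CRY1, transcript XM_017018832 had 500 counts in the knockdown-labelled library and 0 in the control library. By the most abundant transcript alone, PER2 stood at 0.75 with an interval above 1, while CRY1 stood at 0.067 and its interval overlapped an equal level.

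**Figure D5:**
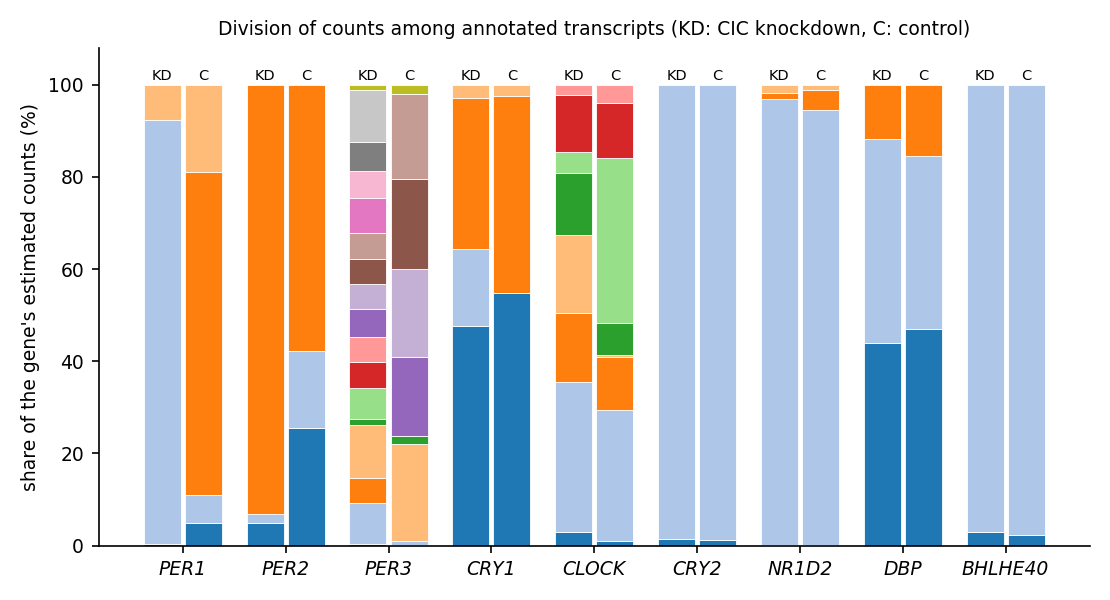
Share of each gene's estimated counts (percent) assigned to each annotated transcript, with the left bar (KD) for the library labelled CIC knockdown and the right bar (C) for the control library; each colour is 1 transcript within a gene. The bars of PER1, PER2, PER3 and CLOCK differ between the libraries, while those of CRY2, NR1D2 and BHLHE40 are nearly alike.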

How the data were processed

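Gene and transcript values came from 1 library per group, made with a strand-specific total RNA kit per the labels' protocols. The submitters' processing notes name Trimmomatic, HISAT2, StringTie, hg38 and GRCh38, without versions. The deposited estimated counts are whole numbers, and the authors' FPKM and TPM values stand beside them per the file headers; transcript lengths are as deposited. Because StringTie derives counts from coverage divided among transcripts, counts of overlapping transcripts are uncertain. Columns were assigned by the sample titles, leaving 0 columns of values without a sample. The design text speaks of duplicates, and whether a column pools them is not stated.

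Libraries were scaled by TMM factors (edgeR 4.0.16 in R 4.3.3), 1.00 for CIC knockdown and 0.995 for control. Log2 ratios of CIC knockdown to control used edgeR's formula with a prior count of 2. The 95% interval of a ratio is the exact Clopper-Pearson one given the summed count (scipy 1.17.1) and covers counting error only. PCR copies are not independent molecules. Intervals were checked on simulated counts that carried counting error alone, so the check says nothing of other error in these libraries. A gene was measured with at least 50 counts in 1 library, and the rule of size asked for at least 100 counts, a ratio of 2-fold and an interval on that side of 1. Ratios of 2 members' ratios used the exact conditional odds ratio. Annotated introns came from GENCODE 29 (GRCh38). Alternatives were other scalings (DESeq2 1.42.0 size factors among them), prior count, filters, halved counts, TPM, FPKM (pseudocount 0.1), the most abundant transcript and the table with assembled transcripts.

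The members and lists were chosen with earlier results of these data known. Named genes are the 10 members, the other core clock genes, up to 4 genes with the largest absolute log2 ratio per remaining list, CIC, and genes that overlap a member; some genes that the rule names are left out of the text, though the counts of their lists include them. With 2 libraries no likeness of pattern between genes can be measured.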

Additional observations from a re-analysis of the deposited data

Results flagged for a closer look

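Assembled splice variants of CRY2 and CRY1, listed by the authors outside the annotated transcripts, carried counts in both libraries. The CRY2 variant had 7691 counts in the library labelled CIC knockdown and 1702 in the control library, or 86.8% and 27.9% of the gene's counts in the table with assembled transcripts. Its exons run through 2 introns annotated in GENCODE, chromosome 11 from 45861033 to 45862059 (1027 bases) and from 45870533 to 45870841 (309 bases). The ratio of the variant was 3.11 (2.95 to 3.28), while the gene as a whole had 8860 counts in the knockdown-labelled library and 6099 in the control library. The variant is 5456 bases long, and the authors' TPM of CRY2 in that table was 25.0 in the knockdown-labelled library and 29.3 in the control library, against 30.5 and 29.3 in the annotated table. The CRY1 variant had 787 counts in the knockdown-labelled library and 635 in the control library, a ratio of 0.854 (0.768 to 0.949), and runs through annotated introns of 785 and 79 bases on chromosome 12. Each variant stood above the limit of 3 counts that a count of 0 allows. The origin of these reads was not tested.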

How the results depend on the processing

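All 10 members were recomputed under 12 alternatives, or 11 for NR1D1. BHLHE40, NR1D2 and CLOCK kept their direction in each, and their call wherever an interval could be formed, with log2 ratios from -0.68 to -0.62, -0.42 to -0.36 and 0.37 to 0.59. Restricting each gene to its most abundant transcript moved most, and here the choice of transcript itself makes the difference. PER1 turned to 3.57, and the median of the E-box driven genes turned to 0.044. The medians of the members and of the genes repressed by REV-ERB moved to 0.067, each being the value of CRY1. CRY1 lost its call, while PER2 gained one at 0.75. PER3 stood at -2.01, and DBP stood at 0.078 without a call. Under this choice 2 members passed the 2-fold rule, against 0 otherwise. Halved counts ended the call of PER3 (-0.22). Without the transcript choice, PER1 stayed between -0.34 and -0.28 and CRY1 between 0.25 and 0.31. TPM and FPKM have no counting interval and gave no counts of calls. No paired analysis was possible because there is 1 library per group, and leaving out a library leaves no comparison. Depth limits NR1D1 and HLF.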
